A study of Homo sapiens with 10 samples.

Results

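The ataxin-2 family and its poly(A)-binding partners were taken here as 8 genes: ATXN2, its paralog ATXN2L, the cytoplasmic poly(A)-binding proteins PABPC1 and PABPC4, the helicase DDX6, LSM12, and the PABP-interacting proteins PAIP1 and PAIP2. All probes whose platform symbol named one of them were used, which gave 19 probes of the 47323 in the table. The measurements came from Illumina beadchips hybridised with RNA of Meg01, a human megakaryoblastic leukaemia cell line. Cells grown in 10% fetal calf serum received lentivirus (10 particles per cell, as multiplicity of infection), were sorted for GFP after 48 hours, and their lysate was spun through 7% to 46% sucrose. Knockdown cells carried the hairpin sh95 against ATXN2, and control cells the hairpin shc002.

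The groups were 3 knockdown and 3 control arrays of polysomal RNA (gradient fractions 9 to 17) and 2 knockdown and 2 control arrays of subpolysomal RNA (fractions 1 to 8). Fractions 9 to 17, as the sample protocol gives them, are 9, whereas the series description counts 8 polysomal fractions, and the labels do not settle which holds. Arrays are named by the P number of their label, which a knockdown and a control array share: P2, P4 and P5 in polysomal RNA, P1 and P3 in subpolysomal RNA. The protocol describes 3 independent experiments and does not tie the P numbers to them. As models, both groups are transduced and sorted cells of 1 line, the knockdown rests on 1 hairpin, and no untransduced cells are among the arrays used here. Normalization gave all arrays 1 distribution, so a value says how an mRNA stood relative to the others in its pool. Less RNA per cell and fewer cells holding it cannot be told apart.

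Cytoplasmic poly(A)-binding protein coats the poly(A) tail, binds the cap-binding scaffold eIF4G and so joins both ends of an mRNA during translation. ATXN2 and ATXN2L contain Lsm-type RNA-binding folds and a short PAM2 motif, by which ATXN2 docks on the C-terminal domain of poly(A)-binding protein. PAIP1 and PAIP2 bind poly(A)-binding protein too, PAIP1 as a stimulator of translation and PAIP2 as an inhibitor. DDX6 is an RNA helicase of P-bodies that serves translational repression and decapping and associates with ataxin-2. LSM12 is an Lsm-domain protein found in complexes with ataxin-2, among them in fly clock neurons. The mRNA of PABPC1 starts with an oligopyrimidine tract, the signature of mRNAs whose translation follows growth signals, and the protein represses its own mRNA.

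Of the 19 probes, 6 were above background on all 10 arrays, 7 on 2 to 9 arrays, 3 on 1 array and 3 on no array. A probe was above background when its deposited intensity exceeded the 0.05 upper tail of its array's background, at 197.4 to 199.5 intensity units or log2 7.62 to 7.64. Tests took in probes that exceeded background on 2 or more arrays: 13 of these 19, covering every gene but DDX6, and 26483 of all probes. Levels below are log2 intensities after quantile normalization unless deposited intensities are named, and adjusted p-values come from the limma fit over all 26483 probes. Between 18536 and 20127 probes were above background per array. Control polysomal array P2 stood apart, with a highest deposited intensity of 140375 against 11164 to 38625 on the other 9. Of 9 megakaryocyte markers on the array 6 were above background on all 10 arrays, among them ITGA2B, GATA1 and FLI1. GP9 was on 8, ITGB3 on 4 and PF4, the platelet chemokine, on none. No lymphoid marker (0 of 3) was above background on all 10, with MS4A1 on 4, CD3E on 2 and CD8A on 1. Of erythroid markers 3 of 5 were above background on all 10 arrays (HBG1, HBG2 and HBE1), while embryonic HBZ was on 4. Of monocyte and granulocyte markers 2 of 5 were (CD14 and LYZ), with CSF1R on 5 and MPO and ELANE on 1 each, and of mast cell markers 2 of 3 (KIT and CPA3), with TPSAB1 on 8.

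**Figure D1:**
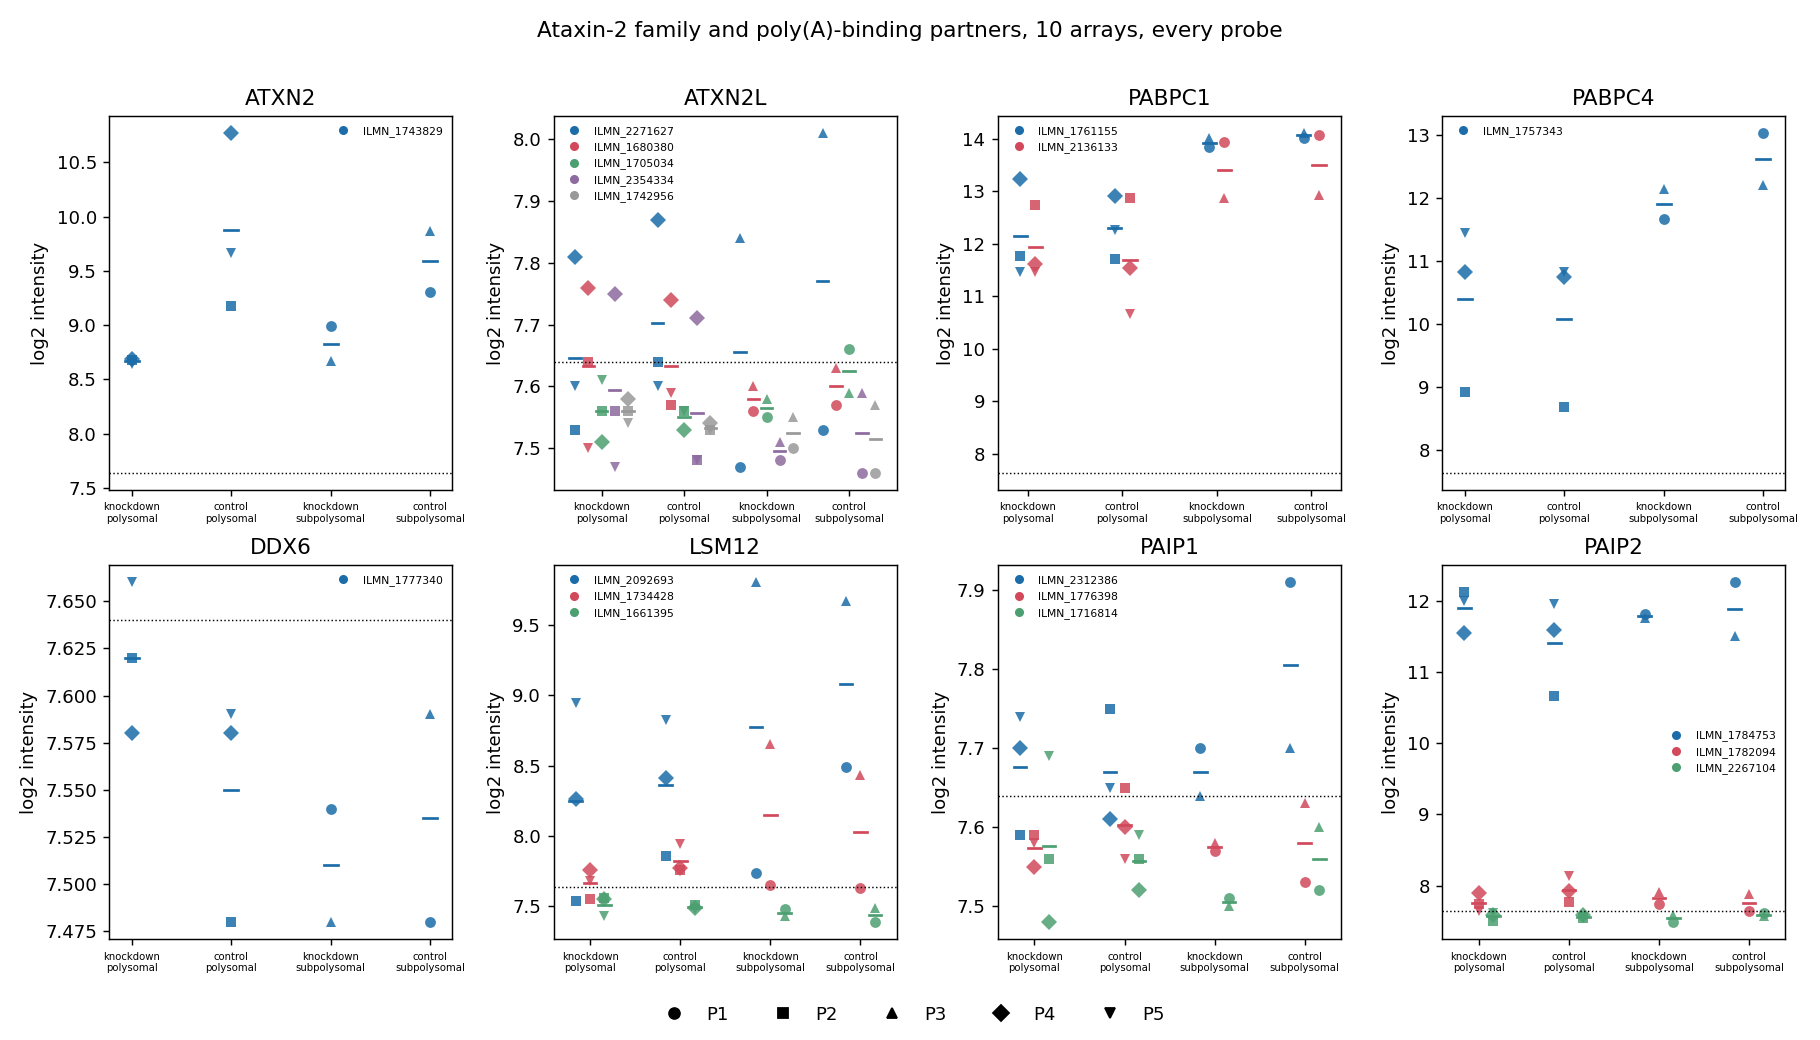
Level of all 19 probes of the 8 genes on the 10 arrays, as log2 intensity after quantile normalization, by group. Colours mark probes, symbols mark P numbers, short bars are group means, and the dotted line is the highest array threshold for background (7.64). The y axes differ between genes. The knockdown arrays of ATXN2 lie at 8.64 to 8.99, and PABPC1 and PABPC4 stand lower in polysomal than in subpolysomal RNA.

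ATXN2, the target of the hairpin, has 1 probe on the array (ILMN_1743829), and it was above background on all 10 arrays. In deposited intensity units the knockdown polysomal arrays read 428 (P2), 412 (P4) and 406 (P5), against 620, 1506 and 823 on the control polysomal arrays. The knockdown subpolysomal arrays read 495 (P1) and 399 (P3), against 606 and 916 on the control arrays. All 5 knockdown arrays thus lay below all 5 control arrays, and they sat close together while the control arrays spread widely. The share of all tested probes with every knockdown array below every control array was not counted.

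The remaining ATXN2 signal differed by pair. As a share of the control array, the knockdown array held 81.6% and 43.6% in subpolysomal pairs P1 and P3. In polysomal pairs P2, P4 and P5 it held 69%, 27.4% and 49.3%. These intensities include each array's background of 187.1 to 187.9 units. With it subtracted the shares were 73.5% and 29.1% in P1 and P3 and 55.6%, 17.1% and 34.4% in P2, P4 and P5, so the median over pairs was 34.4% with subtraction and 49.3% without. The brighter the control array, the lower was this share. That order is largely built in, as the share is divided by the control value and the knockdown arrays read only 399 to 495 units.

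ATXN2 was lower in 5 of 5 pairs, as were 2.84% of all tested probes. Of the 13 tested probes of these genes it was the 1 with a single direction in all pairs, which 6.59% of all tested probes had. The paired log2 difference averaged -1.03 ± 0.69 (SD, n = 5 pairs), with an exact two-sided sign-flip p of 0.0625, the smallest that 5 pairs allow. That test takes the 5 pairs as independent, whereas the protocol describes only 3 independent experiments, so this p may be too small. In the limma fit the averaged difference was -0.99 (95% confidence interval -1.70 to -0.27, adjusted p 1.0), and only 0.0113% of tested probes had a lower value. The ATXN2 mRNA did not differ between pools beyond its error: polysomal minus subpolysomal was -0.16 (SE 0.43) in knockdown cells and 0.28 (SE 0.43) in control cells. Those pool values had adjusted p of 0.966 and 0.999, and the control value was -0.17 without control polysomal array P4. The change of that ratio with knockdown was -0.44 (95% confidence interval -1.87 to 0.98, adjusted p 1.0), and 0.00 without control polysomal array P4.

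In the knockdown comparisons limma called 0 of the 13 tested probes in polysomal RNA, 0 in subpolysomal RNA and 0 in the average, where it called 0% of all tested probes each time. At an unadjusted p under 0.05 the counts were 1, 0 and 1 of the 13, ATXN2 each time, against 405, 228 and 228 of all probes. With the P number as a replicate block these were 1, 0 and 1 of the 13 against 1645, 582 and 899 of all, and no probe was called. The change of the pool ratio with knockdown had 0 called and 0 of the 13 at that unadjusted level.

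**Figure D2:**
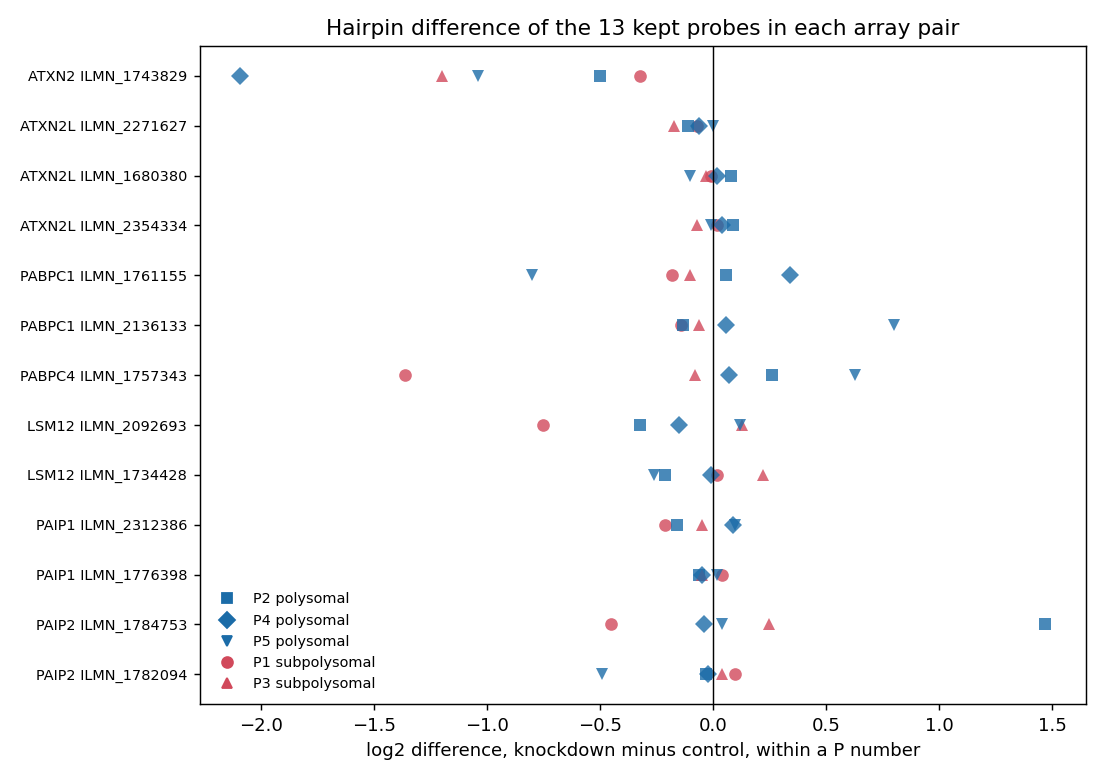
Knockdown minus control within each P number, in log2 units after quantile normalization, for the 13 tested probes. Blue symbols are polysomal pairs (P2, P4, P5) and red symbols subpolysomal pairs (P1, P3). ATXN2 lies left of 0 in all 5 pairs, the PABPC1 probes part in P5 (-0.80 and 0.80), and PAIP2 reaches 1.47 in P2.

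ATXN2L, which shares the Lsm fold and PAM2 motif of ATXN2, was measured near background. Its brightest probe, ILMN_2271627, read 7.53 (P2), 7.81 (P4) and 7.60 (P5) in knockdown polysomal RNA, against 7.64, 7.87 and 7.60 in control polysomal RNA. In subpolysomal RNA it read 7.47 (P1) and 7.84 (P3) in knockdown cells, against 7.53 and 8.01 in control cells. The P3 and P4 arrays were the high ones in both hairpins, and the groups overlapped.

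The probe was above background on 5 of 10 arrays, and of its 4 fellow probes ILMN_1680380 was on 4, ILMN_2354334 on 2, ILMN_1705034 on 1 and ILMN_1742956 on none. The knockdown difference of ILMN_2271627 was -0.06 (95% confidence interval -0.44 to 0.33) in polysomal and -0.12 (-0.59 to 0.35) in subpolysomal RNA, both with adjusted p 1.0. Its pairs read -0.07, -0.11, -0.17, -0.06 and 0.00 from P1 to P5. Standard errors of its knockdown differences were 0.16 in polysomal and 0.20 in subpolysomal RNA, and 0.05 and 0.06 with the P number as a replicate block. Between pools this probe stood at -0.01 (SE 0.18) in knockdown and -0.07 (SE 0.18) in control cells. In knockdown cells ILMN_1680380 was above background only in polysomal RNA, on 2 of 3 arrays. Its pool difference there was 0.05 (SE 0.09, limma adjusted p 0.948), which does not exceed its error.

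PABPC1, the main cytoplasmic poly(A)-binding protein of somatic cells, stood lower in polysomal than in subpolysomal RNA. Its probe ILMN_1761155 read 11.77 (P2), 13.24 (P4) and 11.47 (P5) in knockdown polysomal RNA, and 13.84 (P1) and 14.01 (P3) in knockdown subpolysomal RNA. In control cells it read 11.71, 12.91 and 12.27 in polysomal RNA and 14.02 and 14.11 in subpolysomal RNA. All 6 polysomal arrays lay below all 4 subpolysomal arrays, which 3.22% of tested probes also showed (2.29% had the opposite order). The same held on the deposited scale, with 2423 to 7125 units in polysomal and 12773 to 30945 in subpolysomal RNA.

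The pool difference of that probe was -1.77 (95% confidence interval -3.05 to -0.48, adjusted p 0.435) in knockdown cells and -1.77 (-3.06 to -0.48, adjusted p 0.59) in control cells. The polysomal signal was thus 3.4-fold lower in knockdown and 3.41-fold lower in control cells. Only 0.634% and 0.4% of tested probes had a lower value in these comparisons. Limma did not call it, and with each pair averaged first the difference was -1.77 (95% confidence interval -3.10 to -0.43) with an adjusted p of 0.695 over 3 against 2 pairs. With the authors' scale kept, the knockdown value was -2.70 and the control value -1.85. As no P number occurs in both pools, pool and P number cannot be told apart.

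The other PABPC1 probe, ILMN_2136133, stood lower in polysomal RNA by its group means too. It read 12.75 (P2), 11.61 (P4) and 11.46 (P5) in knockdown polysomal RNA, and 13.94 (P1) and 12.87 (P3) in knockdown subpolysomal RNA. In control cells it read 12.88, 11.55 and 10.66 in polysomal RNA, and 14.08 and 12.93 in subpolysomal RNA. Its pools touched, as control polysomal P2 at 12.88 lay just above knockdown subpolysomal P3 at 12.87. On the deposited scale they overlapped more, with control polysomal P2 at 15092 units and the subpolysomal arrays at 12885 to 21088. Its pool difference was -1.46 (SE 0.75, adjusted p 0.736) in knockdown cells and -1.81 (SE 0.75, adjusted p 0.868) in control cells.

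The 2 PABPC1 probes ordered the arrays differently. Among polysomal pair means after quantile normalization P2 was the lowest on the first probe (11.74, with 13.08 in P4 and 11.87 in P5). On the other it was the highest (12.81, with 11.58 in P4 and 11.06 in P5). The low place of P2 on the first probe did not hold on the deposited log2 scale. There knockdown and control read 11.61 and 12.51 in P2, against 11.24 and 12.06 in P5. P1 exceeded P3 by 1.11 on the other probe, and P3 exceeded P1 by 0.13 on the first. Over the 10 arrays they correlated at r = 0.53 (rho 0.64), a description of arrays that share pools and P numbers. ACTB, the cytoskeletal actin, also had a probe that split by P number: ILMN_1777296 read 7.55 to 8.48 on the P1 and P2 arrays, 9.80 on knockdown P5 and 12.03 to 12.81 on the other 5. Its part in the PABPC1 values was not tested. PABPC1 has many near-identical retrocopies, and which of them its probes could also bind was not tested.

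**Figure D3:**
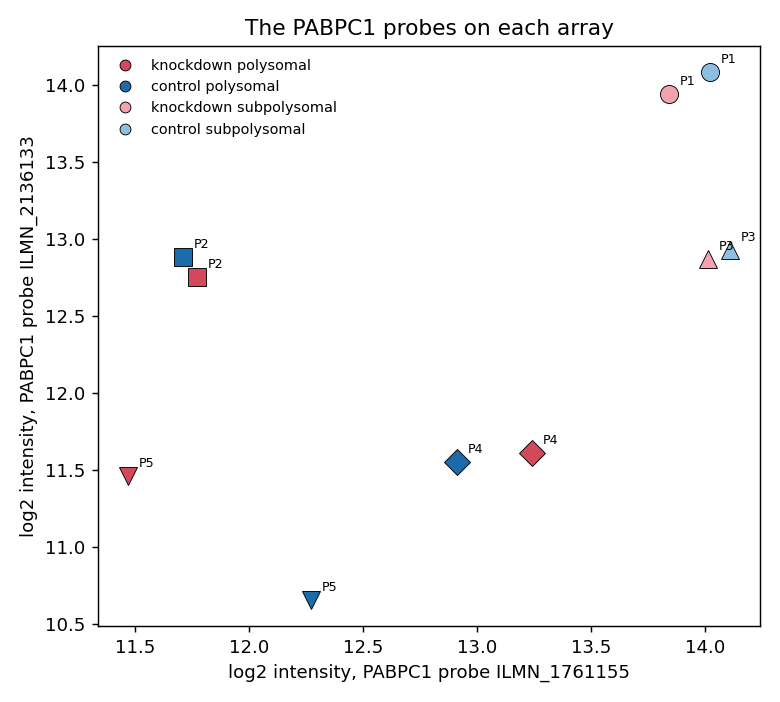
Log2 intensity after quantile normalization of the PABPC1 probes ILMN_1761155 (x axis) and ILMN_2136133 (y axis) on the 10 arrays, coloured by group and labelled by P number. The 4 subpolysomal arrays lie at the right, at 13.84 to 14.11 on the x axis, and the P2 arrays stand high on the y axis (12.75 and 12.88) for their place on the x axis.

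With ATXN2 knockdown the PABPC1 probes did not move together. ILMN_1761155 stood at -0.14 (95% confidence interval -1.29 to 1.02) in polysomal and -0.14 (-1.55 to 1.27) in subpolysomal RNA. ILMN_2136133 stood at 0.24 (-1.33 to 1.82) and -0.10 (-2.03 to 1.83), all 4 with adjusted p 1.0. In pair P5 the first read -0.80 and the other 0.80, and in P1 to P4 both stayed within -0.18 to 0.34. Without quantile normalization the signs of ILMN_2136133 in polysomal RNA (-0.26) and of both probes in subpolysomal RNA (0.43 and 0.44) turned. The pool ratio changed by 0.00 (-1.82 to 1.83) and 0.34 (-2.15 to 2.83) with knockdown. These intervals, from the fit without the P number, admit changes of over 1 log2 unit in either direction. With the P number as a replicate block the knockdown differences had smaller standard errors. In polysomal and subpolysomal RNA these were 0.23 and 0.28 for ILMN_1761155, and 0.19 and 0.23 for ILMN_2136133.

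PABPC4, an inducible poly(A)-binding protein first found in activated T cells and also present in platelets, showed the same order of pools on its 1 probe (ILMN_1757343). It read 8.93 (P2), 10.82 (P4) and 11.45 (P5) in knockdown polysomal RNA, and 11.67 (P1) and 12.14 (P3) in knockdown subpolysomal RNA. In control cells it read 8.68, 10.75 and 10.83 in polysomal RNA, and 13.03 and 12.21 in subpolysomal RNA. Again all 6 polysomal arrays lay below all 4 subpolysomal arrays, and the P2 arrays were the low ones in both hairpins.

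The PABPC4 pool difference was -1.50 (95% confidence interval -3.62 to 0.62, adjusted p 0.803) in knockdown cells and -2.54 (-4.66 to -0.42, adjusted p 0.714) in control cells. In control cells only 0.0604% of tested probes were lower. Without the P2 array of each group these were -0.77 and -1.84. With pairs averaged first the value was -2.02 (95% confidence interval -4.30 to 0.26, adjusted p 0.95).

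The knockdown difference of PABPC4 pointed up in the 3 polysomal pairs (0.26 in P2, 0.07 in P4, 0.63 in P5) and down in the 2 subpolysomal pairs (-1.36 in P1, -0.08 in P3). The resulting change of the pool ratio was 1.04 (95% confidence interval -1.96 to 4.03, adjusted p 1.0), and 1.04 (SE 0.42, adjusted p 0.935) with the replicate block. It was 0.33 without control polysomal array P2, 0.51 without knockdown polysomal P5, 0.63 without control subpolysomal P1 and 1.77 without knockdown polysomal P2. This change did not exceed its error in the fit without the P number (SE 1.27), and limma called it in neither fit. The pair that differed most was P1, where knockdown read 11.67 and control 13.03.

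Between pools limma called 0 of the 13 tested probes in knockdown cells, where it called 0.159% of all tested probes, and 0 in control cells, where it called 0.128%. At an unadjusted p under 0.05 there was 1 of the 13 in knockdown cells (PABPC1, ILMN_1761155) against 2034 of all, and 3 in control cells (both PABPC1 probes and PABPC4) against 1492 of all. Of the 13 probes 2 had all polysomal arrays below all subpolysomal arrays, as did 3.22% of all tested probes.

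**Figure D4:**
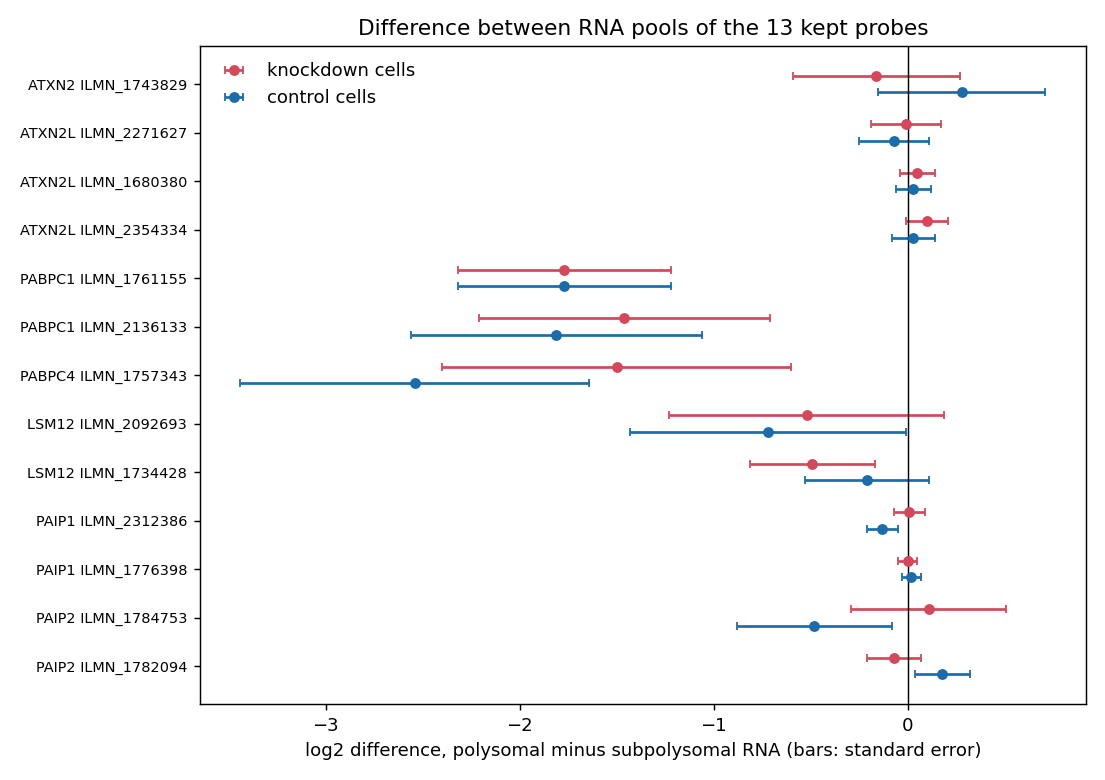
Polysomal minus subpolysomal RNA, in log2 units with its standard error from limma, for the 13 tested probes in knockdown cells (red, upper of each pair) and control cells (blue). PABPC1 and PABPC4 lie at -1.46 to -2.54, and the ATXN2L and PAIP1 probes within -0.13 to 0.10.

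PAIP2, the inhibitor that displaces poly(A)-binding protein from poly(A), was bright on 1 of its 3 probes. ILMN_1784753 read 12.13 (P2), 11.55 (P4) and 12.00 (P5) in knockdown polysomal RNA, against 10.66, 11.59 and 11.96 in control polysomal RNA. In subpolysomal RNA it read 11.81 (P1) and 11.76 (P3) in knockdown cells, against 12.26 and 11.51 in control cells. After quantile normalization 1 array was low, control polysomal P2. On the deposited log2 scale it read 11.21, close to control P4 at 11.27 and knockdown P4 at 11.31, with knockdown P2 at 11.88. Control polysomal P2 also stood apart in its highest intensity and on the ACTB probes ILMN_2038777 (8.67, with 12.01 to 13.45 on the other 9 arrays) and ILMN_2152131 (8.84, with 12.49 to 13.90). Its part in the PAIP2 value was not tested.

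The knockdown difference of PAIP2 in polysomal RNA was 0.49 (95% confidence interval -0.36 to 1.34, adjusted p 1.0), and 0.12 without control polysomal P2. In subpolysomal RNA it was -0.10 (-1.14 to 0.93, adjusted p 1.0). Between pools it was 0.11 (SE 0.40) in knockdown and -0.48 (SE 0.40) in control cells (adjusted p 0.978 and 0.999). A dimmer probe, ILMN_1782094, was also above background on all 10 arrays, between 7.64 and 8.13. It read -0.18 (SE 0.12) with knockdown in polysomal RNA, and its correlation with the bright probe over the 10 arrays was -0.15 (rho -0.50). The third, ILMN_2267104, was not well above background on any array.

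Control polysomal array P2 bore on several of these values. Without it the polysomal knockdown differences were -1.56 for ATXN2, -0.43 and 0.83 for the first and second PABPC1 probes, -0.39 for PABPC4 and 0.12 for PAIP2. The pool differences of control cells were then 0.63 for ATXN2, -1.48 and -2.40 for PABPC1, -1.84 for PABPC4 and -0.11 for PAIP2, and none of these 10 values was called by limma. The PABPC1 and PABPC4 mRNAs thus stood lower in polysomal RNA with and without it.

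PAIP1, the stimulator related to the middle part of eIF4G, was close to background on its 3 probes. ILMN_2312386 was above background on 8 of 10 arrays. It read 7.59 (P2), 7.70 (P4) and 7.74 (P5) in knockdown polysomal RNA, against 7.75, 7.61 and 7.65 in control polysomal RNA. In subpolysomal RNA it read 7.70 (P1) and 7.64 (P3) in knockdown cells, against 7.91 and 7.70 in control cells. The groups overlapped in polysomal RNA, and the highest array was control subpolysomal P1.

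Its knockdown difference was 0.01 (95% confidence interval -0.16 to 0.18) in polysomal and -0.13 (-0.34 to 0.08) in subpolysomal RNA, with adjusted p 1.0. Between pools it was 0.01 (SE 0.08) in knockdown and -0.13 (SE 0.08) in control cells. ILMN_1776398 was above background on 2 arrays and ILMN_1716814 on 1.

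On its brightest probe LSM12 differed more between P numbers than between hairpins. That probe, ILMN_2092693, read 7.54 (P2), 8.26 (P4) and 8.94 (P5) in knockdown polysomal RNA, against 7.86, 8.41 and 8.82 in control polysomal RNA. In subpolysomal RNA it read 7.74 (P1) and 9.80 (P3) in knockdown cells, against 8.49 and 9.67 in control cells. Within each pool the order of the arrays on this probe was the same in both hairpins, P2 below P4 below P5 and P1 below P3.

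The pair means of this LSM12 probe ranged over 1.17 in polysomal and 1.62 in subpolysomal RNA. Its differences within a pair had a median of 0.15 and a largest value of 0.75. A dimmer probe, ILMN_1734428, correlated with it at r = 0.86 (rho 0.72) over the 10 arrays. Its pair means ranged over only 0.15 in polysomal RNA and 0.90 in subpolysomal RNA, against a median difference within a pair of 0.21. ILMN_1661395 was not well above background on any. Knockdown differences of ILMN_2092693 were -0.11 (95% confidence interval -1.61 to 1.38) in polysomal and -0.31 (-2.13 to 1.52) in subpolysomal RNA, with adjusted p 1.0. Their standard errors were 0.63 and 0.78 in this fit, and 0.19 and 0.23 with the P number as a replicate block. Between pools ILMN_2092693 stood at -0.52 (SE 0.71) in knockdown and -0.72 (SE 0.71) in control cells, with adjusted p of 0.931 and 0.999.

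DDX6 has 1 probe, ILMN_1777340, and only knockdown polysomal array P5 at 7.66 was above background. The other arrays read 7.48 to 7.62, so no difference was tested and no fold is given. DDX6 was not well above background on any array of the other 3 groups.

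Pair means and differences within pairs were set side by side for these genes. PABPC4 pair means ranged over 2.34 in polysomal RNA against a median difference within pairs of 0.26. For PABPC1 the range was 1.33 against 0.18 on ILMN_1761155 and 1.76 against 0.13 on ILMN_2136133. ATXN2 ran the other way, with 0.80 between pair means and 1.04 within pairs. For the bright PAIP2 probe the values were 0.59 and 0.25. All these ranges are of polysomal pair means, whereas the medians cover the pairs of both pools. In subpolysomal RNA the range was 0.18 for PABPC4, 0.13 and 1.11 for the first and second PABPC1 probes, 0.12 for ATXN2 and 0.40 for PAIP2. For PABPC4 and the first PABPC1 probe the range there was thus below the median difference within pairs. A range and a median are unlike measures, so the largest differences within a pair are given too. These were 1.36 for PABPC4, 0.80 on both PABPC1 probes, 2.09 for ATXN2 and 1.47 for the bright PAIP2 probe. By that measure PAIP2 also differed more within a pair than between pair means. The P2 array was the lowest polysomal array in both hairpins for PABPC4 and the brightest LSM12 probe. For PAIP2 knockdown P2 was the highest of its group (12.13) and control P2 the lowest (10.66), and for ATXN2 only control P2 was the lowest of its group.

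Genes of the same network were described from 4 lists, none of whose members limma called in any of the 6 comparisons. Poly(A)-binding protein relatives and binding proteins had 17 of 22 genes tested, with a median of 0.10 in polysomal RNA with knockdown (14 above 0, 3 below) against 0.01 over all genes. GSPT1, a translation termination factor with a PAM2 motif, read 0.53 (SE 0.50) and the ubiquitin ligase MKRN1 0.44 (SE 0.35), while PABPC5 read -0.19 (SE 0.18) and the antiproliferative TOB2 -0.18 (SE 0.16). Between pools of control cells the list stood at 0.01, as did all genes. There TNRC6B, a scaffold of microRNA silencing, read 0.65 (SE 0.14) and the initiation scaffold EIF4G1 0.55 (SE 0.48), against PABPC3 at -1.60 (SE 0.35) and GSPT1 at -0.80 (SE 0.56).

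PABPC3, an intronless relative of PABPC1, thus pointed the same way as PABPC1 and PABPC4 between pools. Its probe ILMN_1718128 read 7.78, 8.02 and 7.69 in knockdown polysomal RNA and 8.68 and 9.98 in knockdown subpolysomal RNA. In control cells it read 7.78, 8.02 and 7.78 in polysomal RNA and 9.27 and 9.66 in subpolysomal RNA. Its other probe, ILMN_2223293, was not well above background on any array. The limma adjusted p was 0.286 in control cells. As PABPC3 is a near copy of PABPC1, signal of the more abundant mRNA on this probe cannot be told apart from PABPC3 mRNA.

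DDX6 partners in decapping and repression (11 of 11 tested) had a median of 0.17 in polysomal RNA with knockdown, with 7 above 0 and 4 below. In subpolysomal RNA it was -0.01, with 3 above 0 and 8 below. The decapping activator PATL1 read 0.46 (SE 0.33) and the CCR4-NOT scaffold CNOT1 0.31 (SE 0.76), against LSM14A at -0.18 (SE 0.54) and the decapping cofactor DCP1A at -0.16 (SE 0.42). Between pools the list median was 0.47 in knockdown cells (9 of 11 above 0) and 0.13 in control cells (8 of 11 above 0). In control cells the values were CNOT1 at 1.25 (SE 0.85), EDC4 at 0.59 (SE 0.24), EIF4ENIF1 at -0.09 (SE 0.13) and LSM14B at -0.04 (SE 0.05).

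Lsm-domain proteins (10 of 10 tested) stood at a median of -0.06 in polysomal RNA with knockdown, with LSM5 at 0.29 (SE 0.61), LSM8 at 0.24 (SE 0.34), LSM7 at -0.50 (SE 1.01) and LSM1 at -0.19 (SE 0.79). Between pools their median was -0.70 in knockdown cells, with 10 of 10 below 0, and -0.63 in control cells, with 9 of 10 below 0, against 0.03 and 0.01 over all genes. In control cells LSM4 read -1.38 (SE 0.67) and LSM10, a subunit of the histone mRNA processing particle, -1.28 (SE 0.28), against LSM7 at 0.00 (SE 1.13) and LSM11 at -0.06 (SE 0.07). Of other ATXN2 or ATXN2L partners 5 of 7 were tested, with medians of 0.05 with knockdown in polysomal RNA and 0.04 between control pools. With knockdown these were SH3GL2 at 0.18 (SE 0.19) and CAPRIN1 at 0.13 (SE 0.30), against PRMT1 at -0.54 (SE 1.14) and TARDBP at 0.00 (SE 0.07). Between control pools PRMT1 read 0.46 (SE 1.27) and SH3GL1 0.14 (SE 0.09), against CAPRIN1 at -0.21 (SE 0.34) and TARDBP at -0.20 (SE 0.07).

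**Figure D5:**
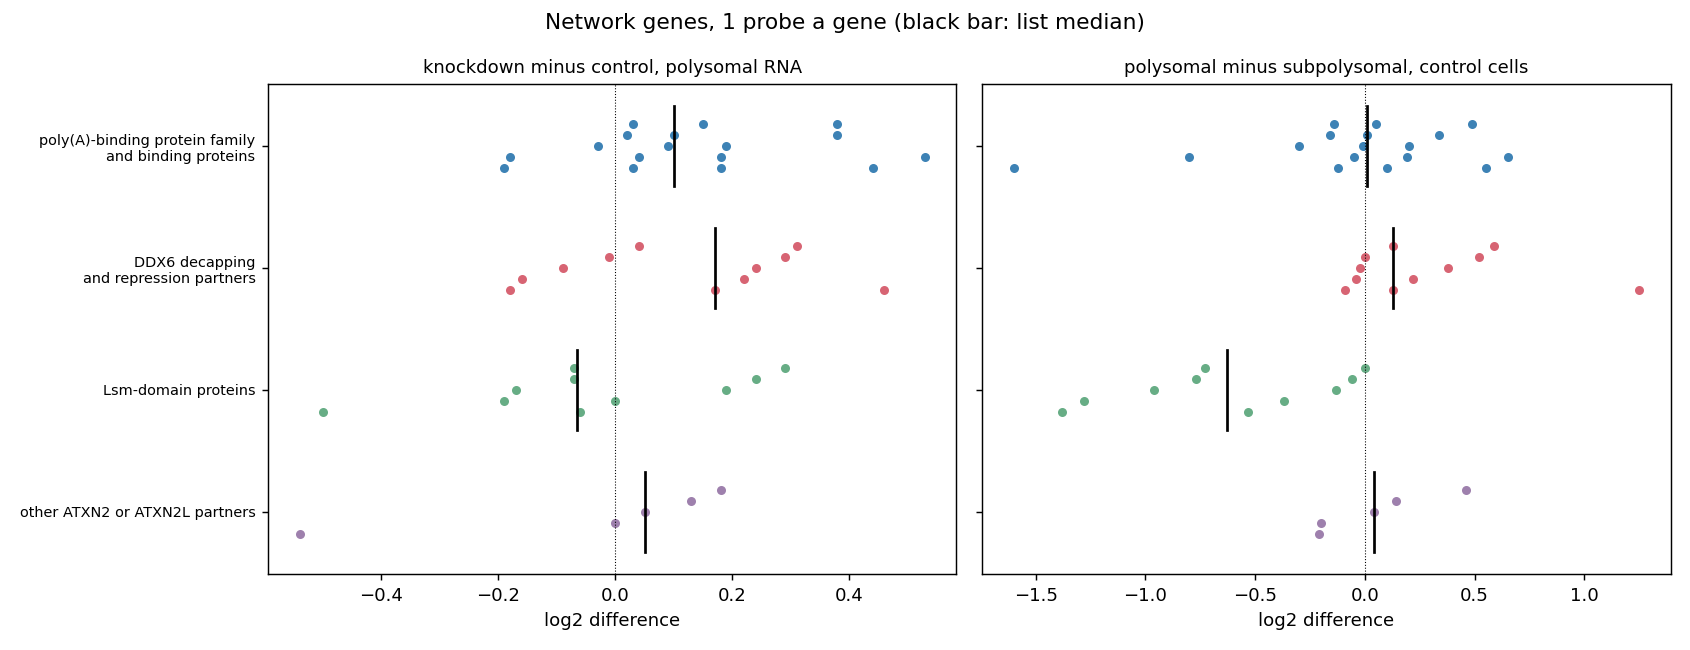
Log2 differences of the genes in the 4 network lists, 1 probe a gene, with knockdown minus control in polysomal RNA on the left and polysomal minus subpolysomal RNA of control cells on the right. Black bars are list medians: 0.10, 0.17, -0.06 and 0.05 on the left and 0.01, 0.13, -0.63 and 0.04 on the right, from top to bottom. The x axes differ.

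Among 6840 other genes with a mean log2 level of at least 8, those whose levels over the 10 arrays were most like ATXN2 were UGCG (r = 0.789), TMED4 (r = 0.759) and STX16 (r = 0.733). For PABPC1 (ILMN_1761155) they were RPL13A (r = 0.957), EIF3L (r = 0.954) and MTPAP (r = 0.951). The arrays share pools, hairpins and P numbers, so these coefficients describe likeness of profile only.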

How the data were processed

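RNA of 10 Meg01 samples, biotin-labelled per the labels' protocols, was measured on Illumina beadchips. The values used are the probe intensities deposited by the authors, on a linear scale, the lowest being 155.4 and the array medians 193.1 to 194.3. R 2.15 is named in the submitters' processing notes, with no normalization stated. A table of unnormalized signals holds 20 columns whose headings match no sample, and these were not used.

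Intensities were log2-transformed and quantile-normalized. Background was modelled per array by mirroring values below the mode. Symbols came from the platform annotation, updated through a RefSeq table (30074 of 30113 probes with 1 symbol matched). A limma 3.58.1 model of 4 group means over all 10 arrays (R 4.3.3) gave two-sided p-values, adjusted by Benjamini-Hochberg over 26483 probes and called under 0.05. The fit was tested on simulated data with independent errors on every array, so that test does not cover arrays that share a P number. Arrays sharing a P number deviated together from their group means (r = 0.917, 0.763, 0.917, 0.769 and 0.467 for P1 to P5), so the P number was also used as a block. Nothing says which arrays came from separate cultures beyond the 3 experiments, so p-values measure the spread between these arrays, and their number limits the precision.

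Members and lists were chosen with earlier results of these data known. The rule for names was every probe of the members, the 2 highest and 2 lowest genes per list, and the 3 most alike genes (PABPC3 values by array, ACTB and the chosen markers were added after their values were seen). Alternatives changed normalization, filter, block, arrays, prior and probe choice. A search for the PAM2 motif in proteins was not run.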

Additional observations from a re-analysis of the deposited data

How the results depend on the processing

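In the 840 alternative values for differences of the 8 genes, 0 were called by limma. The 10 arrays limit the precision throughout. With the P number as a replicate block ATXN2 averaged -0.99 (adjusted p 0.999) and the PABPC1 pool difference in knockdown cells was -1.77 (SE 0.50, adjusted p 0.384), and the block changed no call of these genes. Over all probes limma called 42 between pools of knockdown cells and 34 of control cells. These counts were 24 and 22 with the authors' values, 25 and 23 with median centring, 31 and 14 with the block, 39 and 17 without the filter, 39 and 4 for probes above background on all arrays, 1 and 1 with pairs averaged first, and 0 and 0 with either only the arrays compared or a trended, robust prior. With 1 array left out the counts were 2 to 40 and 1 to 12. Averaging pairs first gives 1 fit for both hairpins, so its 1 and 1 are the same count. The alternative that needs the unnormalized signals was not run, as their headings match no sample. Shares of ATXN2 with background subtracted were added after seeing the data.

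Signs turned, with neither value called, and the cause was not tested. With the authors' values and with median centring alike these were, with knockdown, PABPC1 at 0.43 and its second probe at 0.44 in subpolysomal RNA, the second probe at -0.26 in polysomal RNA, PAIP2 at 0.19 in subpolysomal RNA and PABPC1 at 0.00 in the average. Both settings also gave -0.35 for PAIP2 between pools of knockdown cells, and -0.85 and -0.70 for the change of the PABPC1 pool ratio on its first and second probes. With the authors' values PAIP1 stood at 0.00 between pools of knockdown cells. With pairs averaged first, which mixes the hairpins, the pool values were 0.06 for ATXN2, -0.06 for PAIP1 and -0.19 for PAIP2. These turned against the values of knockdown cells only, and kept the sign of control cells. With the mean of a gene's probes PABPC1 and PAIP1 stood at 0.05 and -0.01 with knockdown in polysomal RNA, ATXN2L at 0.05 between pools of knockdown cells and LSM12 at -0.04 for the change of the ratio.

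Leaving out 1 array at a time kept the sign of these: ATXN2 with knockdown (-1.56 to -0.76 in polysomal RNA, -1.04 to -0.48 in subpolysomal RNA, -1.16 to -0.76 averaged, -1.21 to -0.77 over pairs), and the pool differences of PABPC1 (-2.31 to -1.42 in knockdown, -2.07 to -1.48 in control cells) and PABPC4 (-2.03 to -0.77 and -2.95 to -1.84). Signs turned in the following ranges. With knockdown in polysomal RNA these were ATXN2L -0.14 to 0.03, PABPC1 -0.68 to 0.21, its second probe -0.28 to 0.83, PABPC4 -0.39 to 1.05, LSM12 -0.46 to 0.24 and PAIP1 -0.02 to 0.05. In subpolysomal RNA these were ATXN2L -0.36 to 0.12, LSM12 -1.34 to 0.73, PAIP2 -0.47 to 0.27 and the second PABPC1 probe -0.67 to 0.47. Averaged, these were ATXN2L -0.21 to 0.03, PABPC1 -0.41 to 0.04, its second probe -0.22 to 0.37, PABPC4 -0.55 to 0.17 and LSM12 -0.73 to 0.31. Between pools of knockdown cells these were ATXN2L -0.19 to 0.18, LSM12 -1.56 to 0.51, PAIP1 -0.03 to 0.05 and PAIP2 -0.01 to 0.28, and of control cells ATXN2 -0.17 to 0.63 and ATXN2L -0.31 to 0.17. For the change of the ratio these were ATXN2 -0.79 to 0.00, ATXN2L -0.18 to 0.30, PABPC1 -0.54 to 0.35, its second probe -0.23 to 0.93 and LSM12 -0.84 to 1.22.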
